A study of Mus musculus with 4 samples.

Results

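Of the 5847 Sp9 peaks listed at embryonic day 13.5 (E13.5), 322 lay within 1000 bp of the transcription start site (TSS) of exactly 1 gene and had no counterpart in the list of embryonic day 16.5 (E16.5). These are called E13.5-only promoter peaks. A counterpart was an E16.5 peak of an assigned gene whose signed distance from the TSS differed by 200 bp or less. Both the promoter limit and the comparison of the lists therefore chose these peaks, and their number and positions are given as a description, with no test. The 322 peaks came from 993 promoter peaks in the E13.5 list. Of these, 138 lay within 1000 bp of 2 or more genes and were set aside. Of the remaining 855 single-gene promoter peaks, 533 had a counterpart at E16.5 and 322 (37.7%, 95% Wilson interval 34.5 to 41.0) did not. The 322 peaks lay at 321 genes, because Siah3 had 2 of them.

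Sp9 belongs to the SP/KLF family of zinc finger proteins, transcription factors that bind GC-rich promoter elements. It is made in the developing ganglionic eminences, the embryonic source of striatal projection neurons and of many forebrain interneurons. Promoters are bound by general and lineage-specific factors alike, so a peak at a promoter can occur at housekeeping and at developmental genes.

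The data came from wild-type CD1 embryos, whose basal ganglia were dissected on E13.5 or on E16.5. At each stage, chromatin was cross-linked, sheared and precipitated with a rabbit antibody to Sp9, and an input library without antibody was made. The series has 4 libraries, 1 ChIP and 1 input per stage, and the peak lists of the 2 ChIP libraries were used. The sources used here do not say whether embryos were pooled, and no agent or mutant allele is named for any group. Dissected tissue mixes cell types, and fewer bound cells and weaker binding per cell cannot be told apart. The lists hold no expression values, so the labelled tissue was not checked against its markers.

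The lists give each peak only as a distance from the TSS of a named gene on the mm9 build. Depth is unknown, since they hold no read total, height or fold enrichment. A promoter without a listed peak may still be bound below the authors' threshold. Each stage has a single ChIP library, so no replicate check was possible, and the intervals reflect counting error alone.

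The promoter sequences of 6 genes with an E13.5-only peak are shown because they belong to the developmental, cell cycle and adhesion lists described below, because the peak lay inside the 300 bp window and because RefSeq lists a single start for them. Mfng, also in these lists and with its peak 44 bp upstream, had no matched reference promoter. Myt1l and Tcf12, which meet the other criteria, have several listed starts and are not shown. Each takes in the 250 bp before the gene's start and the 50 bp after it, as RefSeq gives it on the GRCm38.p6 build, 5′ to 3′ on the gene's strand, and capitals mark GGGCGG, the core of the GC box, on either strand. The peaks were placed on mm9, so the start used by the authors may differ from the one shown.
Sp9 chr2:73271676-73271975 (+ strand): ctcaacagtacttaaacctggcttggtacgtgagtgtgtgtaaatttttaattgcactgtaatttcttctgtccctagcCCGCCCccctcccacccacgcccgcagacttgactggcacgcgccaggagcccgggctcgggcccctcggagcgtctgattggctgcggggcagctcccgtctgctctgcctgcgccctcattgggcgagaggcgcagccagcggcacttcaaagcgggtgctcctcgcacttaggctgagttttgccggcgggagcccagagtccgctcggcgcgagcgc
Sp5 chr2:70474673-70474972 (+ strand): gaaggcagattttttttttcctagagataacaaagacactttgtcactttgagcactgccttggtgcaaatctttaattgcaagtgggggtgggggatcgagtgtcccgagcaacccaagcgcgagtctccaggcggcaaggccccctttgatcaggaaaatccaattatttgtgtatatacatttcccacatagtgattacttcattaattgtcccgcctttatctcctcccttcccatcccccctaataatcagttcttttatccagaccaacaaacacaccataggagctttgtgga
Dll3 chr7:28301736-28302035 (- strand): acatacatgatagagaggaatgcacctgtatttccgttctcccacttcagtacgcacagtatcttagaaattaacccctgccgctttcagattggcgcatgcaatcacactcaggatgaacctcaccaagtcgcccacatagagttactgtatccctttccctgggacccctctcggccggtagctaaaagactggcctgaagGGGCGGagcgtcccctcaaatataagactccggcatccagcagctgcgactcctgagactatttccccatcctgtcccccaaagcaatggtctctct
Wnt7a chr6:91411304-91411603 (- strand): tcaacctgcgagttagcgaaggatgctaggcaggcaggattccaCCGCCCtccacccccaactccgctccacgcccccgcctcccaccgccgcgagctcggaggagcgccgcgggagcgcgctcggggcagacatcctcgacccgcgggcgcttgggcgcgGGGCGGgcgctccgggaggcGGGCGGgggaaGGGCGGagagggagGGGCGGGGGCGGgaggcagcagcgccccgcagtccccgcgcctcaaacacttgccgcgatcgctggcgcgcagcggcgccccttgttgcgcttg
Rbl1 chr2:157204485-157204784 (- strand): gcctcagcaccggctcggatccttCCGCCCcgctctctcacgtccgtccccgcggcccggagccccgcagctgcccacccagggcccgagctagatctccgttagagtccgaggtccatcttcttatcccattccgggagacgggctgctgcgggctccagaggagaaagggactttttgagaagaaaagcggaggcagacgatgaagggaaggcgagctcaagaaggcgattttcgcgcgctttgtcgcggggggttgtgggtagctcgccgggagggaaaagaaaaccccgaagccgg
Igsf9 chr1:172481963-172482262 (+ strand): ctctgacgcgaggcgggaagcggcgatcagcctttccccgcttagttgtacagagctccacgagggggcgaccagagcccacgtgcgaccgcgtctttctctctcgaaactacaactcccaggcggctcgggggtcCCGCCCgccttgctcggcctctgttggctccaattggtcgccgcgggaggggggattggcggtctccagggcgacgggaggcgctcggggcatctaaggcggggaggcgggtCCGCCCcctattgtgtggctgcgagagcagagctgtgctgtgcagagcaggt

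The listed peaks lay 127 bp upstream of the Sp9 TSS, 54 bp upstream of Sp5, 52 bp upstream of Dll3, 111 bp upstream of Wnt7a, 128 bp upstream of Rbl1 and 112 bp upstream of Igsf9. The 6 sequences differ widely. The Wnt7a window held 6 matches to the GC box core and had 76.0% GC, the Igsf9 window held 2 and had 67.7%, and the Sp5 window held 0 and had 45.0%. Sp9, Dll3 and Rbl1 had 1 match each.

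E13.5-only promoter peaks gathered just upstream of the TSS. Of the 322 peaks, 216 (67.1%, 61.8 to 72.0) lay upstream of the TSS or at it. The median position was 71 bp upstream, and the median absolute distance was 143 bp (interval 125 to 166, from order statistics). Within 100 bp of the TSS lay 117 peaks (36.3%, 31.3 to 41.7), while 168 lay farther out but within 500 bp and 37 (11.5%, 8.45 to 15.4) beyond 500 bp. Among the peaks nearest to a TSS were those of Rab5c, a GTPase of early endosomes, and Htatsf1, an RNA-binding factor, each 3 bp downstream. Those of Kctd21 and Wdr34 lay 6 and 7 bp upstream. The farthest were those of the kinase gene Tesk1, 997 bp downstream, and of Mll1 (953 bp), Siah3 (945 bp), the sensory neuron receptor gene Mrgpra3 (927 bp), all upstream, and Rimbp3, 921 bp downstream. The nearest E13.5 peaks beyond the 1000 bp limit lay at 1007, 1021 and 1026 bp.

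The spread around the TSS was set beside the other 2 sets of single-gene promoter peaks. The share within 100 bp was 36.3% for the 322 E13.5-only peaks, 44.7% (40.5 to 48.9) for the 533 peaks found at both stages and 50.9% (47.9 to 53.8) for the 1089 E16.5-only peaks. The median absolute distance was 143 bp for E13.5-only peaks, 118 bp (103 to 137) for peaks at both stages and 98 bp (91 to 109) for E16.5-only peaks. The upstream share was 67.1% for E13.5-only peaks, 67.4% (63.3 to 71.2) at both stages and 59.0% (56.0 to 61.8) for E16.5-only peaks. Distance entered the matching that defined the sets, so these values only describe them, and no test was made.

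**Figure D1:**
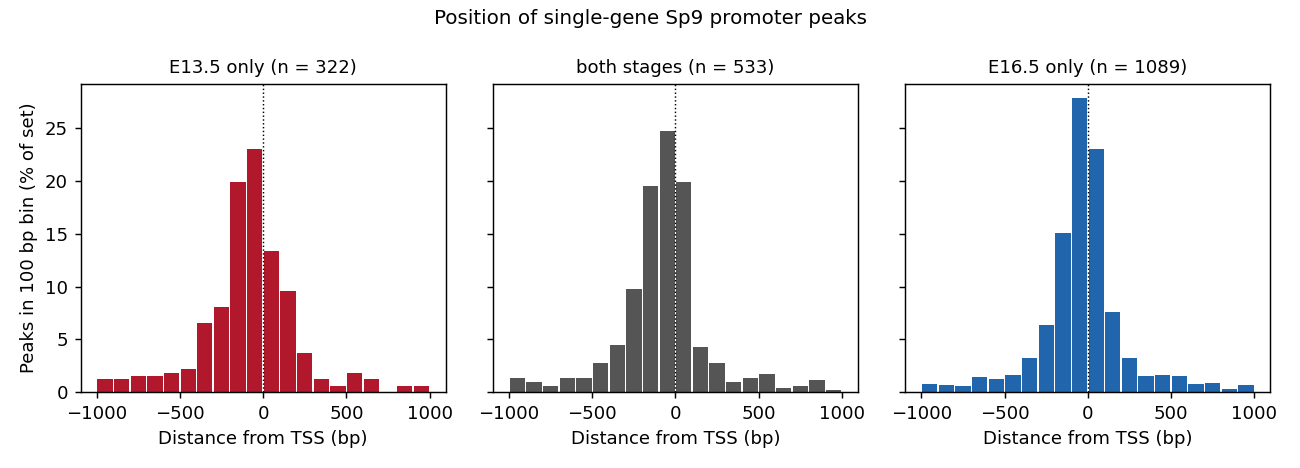
Signed distance from the TSS (x axis, bp; negative is upstream) of single-gene promoter peaks in 100 bp bins (y axis, percent of each set). The 322 E13.5-only peaks (left) peak in the 100 bp upstream of the TSS, which hold 23% of them, with 19.9% in the next bin upstream.

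The E16.5 list was searched for other peaks of the same genes. For 194 of the 322 peaks (60.2%, 54.8 to 65.4) no assigned gene had any E16.5 peak. For the other 128, the nearest E16.5 peak lay a median of 14905 bp from the place of the E13.5 peak. Within 1000 bp of that place lay an E16.5 peak in 50 cases (15.5%, 12 to 19.9), of which 23 differed by 300 bp or less. A further 8 differed by up to 5000 bp, 31 by up to 50000 bp and 39 by more. The own gene had another promoter peak at E16.5 for 48 of the 322 peaks (14.9%, 11.4 to 19.2). By the mirror rule, 51 of the 1089 E16.5-only peaks (4.68%, 3.58 to 6.11) had another E13.5 promoter peak at their gene, and 767 (70.4%, 67.7 to 73.1) had no E13.5 peak of an assigned gene. The E16.5 list held more single-gene promoter peaks, 1625 against 855, and 1089 of the 1625 (67%) were E16.5-only. The lists thus offered unequal numbers of promoter peaks to find, and the part of this in the shares was not tested.

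**Figure D2:**
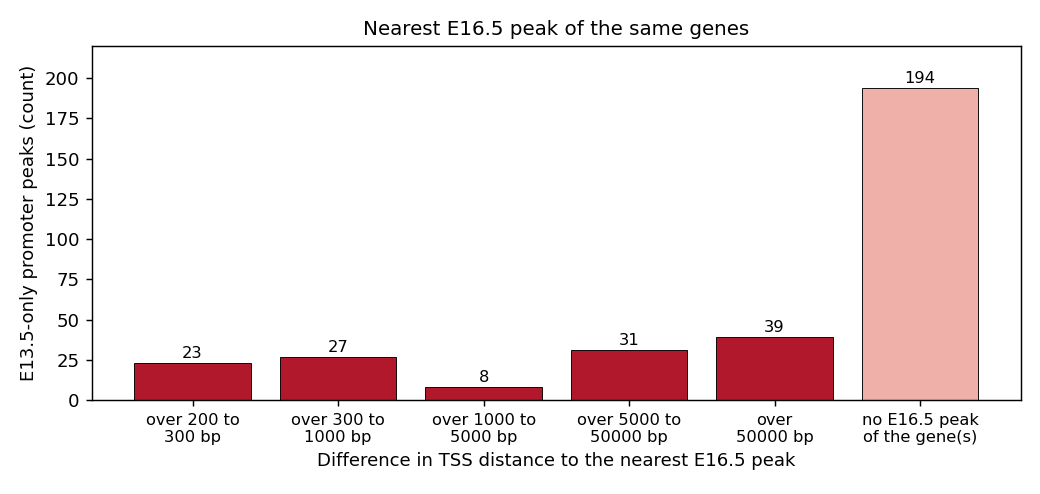
Number of E13.5-only promoter peaks (y axis, count) by the difference in TSS distance to the nearest E16.5 peak of an assigned gene (x axis). The largest class, 194 peaks, has no E16.5 peak of its genes at all, and 50 have an E16.5 peak within 1000 bp of the same place.

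The limit of 200 bp cut through a continuous range. Just outside it, the peak of Scfd1, a gene of vesicle fusion, lay 179 bp upstream at E13.5 and its nearest E16.5 peak 22 bp downstream, a difference of 201 bp. D930015E06Rik also differed by 201 bp, with peaks 18 bp upstream at E13.5 and 219 bp upstream at E16.5. Manf, which encodes a neurotrophic factor of the endoplasmic reticulum, differed by 204 bp. Just inside it were Cited2 with a difference of 197 bp, Usp53 with 194 bp and BC018507 with 192 bp, and these count as found at both stages. Cited2, a transcriptional coregulator gene, also had a separate E13.5-only peak 890 bp downstream. Pou2f1 and Mll1 likewise had a promoter peak in each set. Among the 533 peaks found at both stages the median difference was 58 bp, and 44 (8.26%) differed by more than 150 bp.

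Of the 321 genes, 316 names matched the RefSeq gene table, and 314 were protein-coding. The share of all 21900 protein-coding genes with an E13.5-only promoter peak was 1.43%. The same share was 2.37% for a promoter peak at both stages and 4.85% for an E16.5-only promoter peak. A gene can count in more than 1 of these sets. Of the 314 genes, 44 (14.0%) also had an E16.5-only promoter peak and 3 a promoter peak found at both stages. Klf7, Myt1l and Gsk3b, described below, are among the 44. Counts in gene lists are given beside these values and were not tested. The 34 lists hold 71 of the 314 genes (22.6%). Of these lists, 18 are lists of gene names and 16 are defined by a pattern in the gene symbol.

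The lists of gene names, which cover developmental regulators, signalling, cell cycle, neuronal and cell type genes, held 19 of the genes. Sp9 itself was the member among the 3 genes of the study's title, Sp8, Sp9 and Six3. Its E13.5-only peak 127 bp upstream stood among 3 further peaks, 2918 bp upstream and 4564 and 7908 bp downstream, each of which had an E16.5 counterpart within 51 bp. The Sp9 locus therefore differed between the lists at its promoter alone. Six3, a homeobox gene of the D2 lineage, showed the reverse: its E13.5 peaks all lay 92082 bp or more upstream, and its promoter peak, 5 bp upstream, was in the E16.5 list. Sp8 had no promoter peak in either list, its nearest peaks lying 9455 bp upstream at E13.5 and 9442 bp upstream at E16.5.

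Of the 24 other SP/KLF genes, 2 (8.33%, 2.32 to 25.8, against 1.43% of all protein-coding genes) had an E13.5-only promoter peak. In this list 4 genes (16.7%, against 2.37%) had one at both stages and 5 (20.8%, against 4.85%) an E16.5-only one. The E13.5 list placed a peak 54 bp upstream of Sp5, a target gene of Wnt signalling. Its other 6 E13.5 peaks lay 272285 to 363652 bp upstream, nearer to Myo3b, and 3 of them recurred. The nearest E16.5 peak assigned to Sp5 lay 98331 bp upstream. Klf7, which promotes axon growth, had peaks 673 bp upstream at E13.5 and 357 bp upstream at E16.5, so its promoter carried a listed peak at both stages at different places. Of the 8 E13.5 peaks of Klf7, 5 recurred.

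Among 16 regulators of ganglionic eminence progenitors, Dlx2 and Tle4 had an E13.5-only promoter peak (12.5%, 3.50 to 36.0, against 1.43% of all protein-coding genes). In this list 3 genes (18.8%, 6.59 to 43.0, against 2.37%) had one at both stages. An E16.5-only one was found in 1 (6.25%, 1.11 to 28.3), an interval that includes the 4.85% of all. Dlx2, a homeobox gene that directs the differentiation of GABAergic neurons, carried its E13.5-only peak 165 bp downstream. No E16.5 peak lay nearer than 5509 bp to the Dlx2 TSS. That E16.5 peak matched the E13.5 peak at 5514 bp, and 3 of the 7 E13.5 peaks of Dlx2 recurred. Tle4, a Groucho corepressor gene, carried its promoter peak 334 bp upstream and another 31094 bp downstream at E13.5, and neither was listed at E16.5. Of its 13 E13.5 peaks, 8 recurred, all of them 179400 bp or farther from the TSS. The paralogue Tle1, in none of the lists, had an E13.5-only peak 917 bp upstream, and 7 of its 13 E13.5 peaks recurred, the nearest at 4551 bp downstream.

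Of 34 striatal neuron genes, 2 were members (5.88%, 1.63 to 19.1), against 1.43% of all protein-coding genes. In the same list 1 gene had a promoter peak at both stages and 6 (17.6%, 8.35 to 33.5, against 4.85%) an E16.5-only one. Among the 2 members was Pbx3, which encodes a TALE homeodomain protein that acts as a partner of Meis and Hox factors. The Pbx3 promoter peak lay 596 bp upstream, and the nearest E16.5 peak lay 8294 bp downstream. Of the 12 E13.5 peaks of Pbx3, 6 recurred. At 8291 bp downstream of Pbx3 the E13.5 and E16.5 peaks differed by 3 bp, whereas the promoter peak of the same gene had no counterpart. Of 19 genes of the medial eminence and its interneurons, Lmo3, which encodes a LIM-only cofactor, was the only member (5.26%, 0.935 to 24.6, against 1.43%). Lmo3 had its E13.5-only peak 771 bp upstream, and 2 of its 7 E13.5 peaks recurred, at 161201 and 161997 bp downstream. None of 15 genes of the caudal eminence and olfactory interneurons was a member, a count that allows a share of up to 20%.

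**Figure D3:**
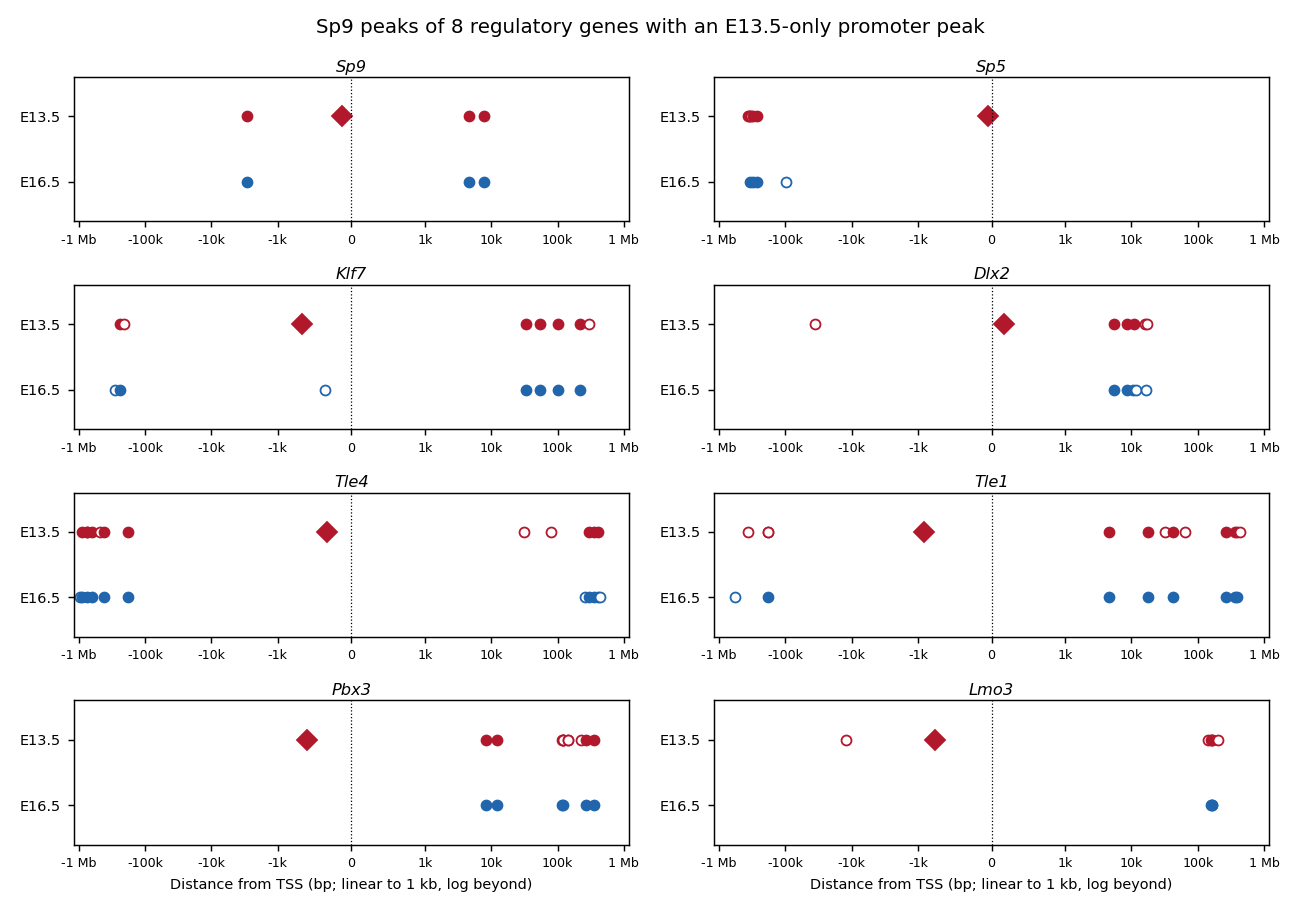
Distance from the TSS (x axis, bp; linear to 1 kb, logarithmic beyond) of every listed Sp9 peak of 8 regulatory genes at E13.5 (upper row, red) and E16.5 (lower row, blue). Diamonds are E13.5-only promoter peaks, filled circles have a counterpart within 200 bp at the other stage and open circles have none. In the 8 panels the diamond has no blue filled circle below it, by the rule that chose it, while filled pairs lie farther out.

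Of 65 other neural transcription factor genes, Myt1l, Tcf12 and Pou2f1 were members (4.62%, 1.58 to 12.7). In the same list 9 genes (13.8%, against 2.37%) had a promoter peak at both stages and 7 (10.8%, against 4.85%) an E16.5-only one. Myt1l, a zinc finger gene of neuronal identity, had a promoter peak in each list, 184 bp upstream at E13.5 and 570 bp upstream at E16.5. The E13.5 peak at 2106 bp downstream matched the E16.5 peak at 2132 bp. Tcf12, an E protein that pairs with proneural bHLH factors, carried its promoter peak 191 bp upstream at E13.5, with its nearest E16.5 peak 21445 bp upstream. Pou2f1, which encodes the POU factor Oct1, had 2 promoter peaks at E13.5, at 778 and 152 bp upstream. The peak at 152 bp had a counterpart 290 bp upstream in the E16.5 list, and the one at 778 bp had none.

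Among signalling and guidance genes, 5 were members: Mfng, Dll3, Wnt7a, Gsk3b and Robo3. Of 24 Notch pathway genes, Mfng and Dll3 were members (8.33%, 2.32 to 25.8, against 1.43% of all protein-coding genes). Mfng, a glycosyltransferase that modifies Notch, carried its promoter peak 44 bp upstream at E13.5. Its other peak recurred at 37515 bp downstream in the E13.5 list and 37411 bp downstream in the E16.5 list. Dll3, a Notch ligand gene, had its single peak 52 bp upstream at E13.5 and no E16.5 peak. Of 50 Wnt pathway genes, Wnt7a and Gsk3b were members (4%, 1.10 to 13.5), an interval that includes the 1.43%. In this list 2 genes (4%, against 2.37%) had a promoter peak at both stages and 6 (12%, against 4.85%) an E16.5-only one. Wnt7a, a ligand gene, carried its promoter peak 111 bp upstream at E13.5. Both of its other E13.5 peaks, 86423 and 88860 bp downstream, recurred. Gsk3b, a kinase that marks beta-catenin for degradation, carried its promoter peak 150 bp downstream at E13.5, and its E16.5 peaks lay 383 bp upstream and 575 bp downstream. Of 68 axon guidance genes, Robo3, a receptor gene of commissural axons, was the only member (1.47%, 0.260 to 7.87), close to the 1.43% of all protein-coding genes. Its peak lay 871 bp downstream, and its other peak recurred at 21236 bp upstream in the E13.5 list and 21197 bp upstream in the E16.5 list. Of the 68 axon guidance genes, 6 (8.82%, against 2.37%) had a promoter peak at both stages and 7 (10.3%, against 4.85%) an E16.5-only one. Of 55 genes of the FGF, BMP and hedgehog pathways, 0 were members, which allows a share of up to 5.45%.

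Of 55 cell cycle genes, E2f1 and Rbl1 were members (3.64%, 1.0 to 12.3), an interval that includes the 1.43% of all protein-coding genes. E2f1 and Rbl1 encode an E2F activator and a pocket protein that restrains E2F factors. The peak of E2f1 lay 268 bp upstream and that of Rbl1 128 bp upstream, and neither gene had another peak in either list. Of 62 synaptic adhesion and scaffold genes, Igsf9, an immunoglobulin superfamily gene, was the only member (1.61%, 0.285 to 8.59), a share near that background. Its single peak lay 112 bp upstream, and it had none at E16.5. The lists of 34 general neuronal genes, 13 radial glia genes, 11 oligodendrocyte lineage genes, 16 genes of endothelium, microglia and blood, and 15 genes of liver and heart muscle held 0 members. Their sizes allow shares of up to 8.82%, 23.1%, 27.3%, 18.8% and 20% in the order given, so membership at the background rate could not be told from none.

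Most genes from the lists of names had other peaks in one list or the other. Of these 19 genes, 15 (78.9%, 56.7 to 91.5) had some E16.5 peak, and 14 (73.7%, 51.2 to 88.2) had another E13.5 peak beyond 1000 bp. Of the 250 member genes in no list, 90 (36.0%, 30.3 to 42.1) had an E16.5 peak and 72 (28.8%, 23.5 to 34.7) another E13.5 peak beyond 1000 bp. Developmental regulators often lie in gene-poor regions, where the authors' assignment reaches farther, and the part of that reach in the difference was not tested. The 4 listed genes without any E16.5 peak were Dll3, E2f1, Rbl1 and Igsf9.

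Chromatin regulators held the highest share of members among the pattern lists. Of 163 genes, 10 (6.13%, 3.37 to 10.9) had an E13.5-only promoter peak, against 1.43% of all protein-coding genes. In the same list 13 genes (7.98%, against 2.37%) had a promoter peak at both stages and 23 (14.1%, against 4.85%) an E16.5-only one. The list thus stood above the background in each set. The SP/KLF, other neural transcription factor and ubiquitin system lists also had whole intervals above the background in each set. The members nearest to their TSS were Dnmt1, the maintenance DNA methyltransferase, with a peak 46 bp downstream, and Ehmt1, a histone H3 methyltransferase, with one 51 bp upstream. Mllt10, which entered through its symbol and encodes a partner of a histone methyltransferase, carried its promoter peak 59 bp upstream at E13.5, and the nearest at E16.5 lay 291 bp upstream. Smarca4, the ATPase of the BAF remodelling complex, had a peak 113 bp upstream and none at E16.5. Smarcb1 and Arid1b, named here after their values were seen, encode further BAF subunits and had peaks 500 bp downstream and 808 bp upstream. Arid1a, another BAF subunit gene, had a promoter peak at both stages, and BAF genes were not counted as a set. Mll1, a histone methyltransferase gene named by the distance rule, had its E13.5-only peak 953 bp upstream. It also had an E13.5 promoter peak that counts as found at both stages, and its single E16.5 peak lay 162 bp upstream.

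Of 330 genes of the proteasome and ubiquitin system, 12 (3.64%, 2.09 to 6.25) were members, against 1.43% of all protein-coding genes. A promoter peak at both stages was found in 20 (6.06%, against 2.37%) and an E16.5-only one in 30 (9.09%, against 4.85%). Ligase genes among them were Rnf14 and Rnf126, with peaks 37 and 67 bp upstream. Fbxo33, a substrate adaptor gene, had a peak 48 bp downstream, and the deubiquitinase gene Usp4 one 63 bp upstream. Of these 4 genes, Fbxo33 alone had E16.5 peaks, the nearest 88475 bp downstream. Of 264 vesicle traffic genes, 6 (2.27%, 1.05 to 4.87) were members, among them Rab5c, the coat protein gene Copb1 with a peak 90 bp downstream, Vps13c with one 116 bp upstream and Snx3 with one 120 bp downstream.

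Lists of general gene expression had shares whose intervals include the 1.43% of all protein-coding genes. Of 113 genes of RNA polymerases, Mediator and basal transcription, 3 (2.65%, 0.907 to 7.52) were members. They included Med16, a Mediator subunit gene, with a peak 23 bp downstream, and Supt20, a SAGA subunit gene, with one 342 bp upstream. Neither of these genes had an E16.5 peak. Of 173 splicing and RNA-binding factor genes, 3 were members (1.73%, 0.591 to 4.97). Hnrnph1 had peaks 29 bp downstream at E13.5 and 516 bp upstream at E16.5, Ddx56 had one 36 bp downstream at E13.5, and Srsf5 one 684 bp downstream at E13.5. Of 71 translation factor genes, Eif5a2 and Eef1d were members (2.82%, 0.776 to 9.70), with peaks 61 and 231 bp upstream. Of 468 zinc finger genes of the Zfp, Zbtb and Zscan type, 7 (1.5%, 0.726 to 3.05) were members, the nearest to their TSS being Zfp51 at 47 bp upstream, Zfp963 at 134 bp downstream, Zfp760 at 163 bp upstream and Zbtb12 at 253 bp upstream.

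Counts in several other pattern lists were 0 or 1. Of 85 cytoplasmic ribosomal protein genes, 0 were members, against 5 (5.88%) with a promoter peak at both stages and 9 (10.6%) with an E16.5-only one. The count of 0 allows a share of up to 3.53%, which includes the 1.43% of all protein-coding genes. Of 187 genes of mitochondrial ribosomes and the respiratory chain, Atp5g1, an ATP synthase subunit gene, was the only member, with a peak 407 bp upstream (0.535%, 0.0945 to 2.97). The 389 solute carrier genes held 0 members, which allows up to 0.771%, below the background. A promoter peak at both stages was found in 6 (1.54%, 0.709 to 3.32, against 2.37%). An E16.5-only one was found in 17 (4.37%, 2.75 to 6.89, against 4.85%), and both intervals include the background. The 1467 olfactory and vomeronasal receptor genes held 0 in each of the 3 sets. The cadherin and protocadherin genes held 0 members as well, which allows up to 2.97%, and this includes the background. Of 166 Sox, Fox, Pou and homeobox cluster genes, Pou2f1 was the only member (0.602%, 0.106 to 3.33), an interval that includes the 1.43%. In that list 9 genes (5.42%, 2.88 to 9.98, against 2.37%) had a promoter peak at both stages. An E16.5-only one was found in 9 (5.42%), near the 4.85% of all protein-coding genes.

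Of 53 receptor genes for glutamate, GABA and glycine, Gria2 was the only member (1.89%, 0.334 to 9.94), a share near the 1.43% of all protein-coding genes. Gria2 encodes the AMPA receptor subunit that sets calcium permeability and carried its promoter peak 73 bp upstream at E13.5. A distant peak recurred, with the E13.5 peak 68880 bp upstream and the E16.5 peak 68846 bp upstream. Of 1753 predicted and Rik genes 6 were members (0.342%, 0.157 to 0.745), with 1700030J22Rik nearest to its TSS at 11 bp downstream.

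**Figure D4:**
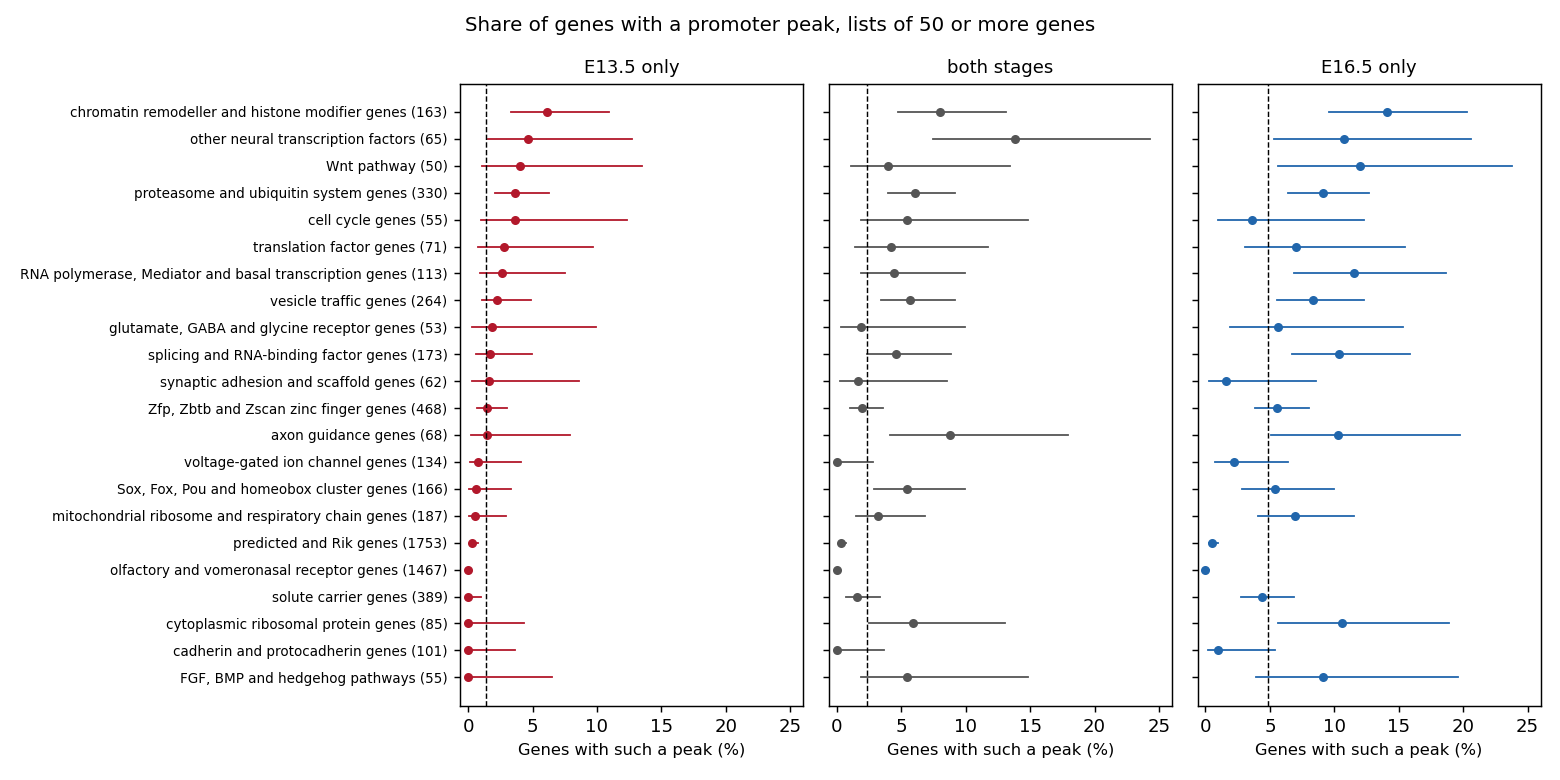
Percent of the genes of each list (x axis; number of genes in parentheses) with an E13.5-only promoter peak (left), one at both stages (middle) and an E16.5-only one (right), for lists of 50 or more genes. Points are shares, lines are 95% Wilson intervals and dashed lines mark all protein-coding genes (1.43%, 2.37% and 4.85%). Chromatin regulators stand right of the dashed line in all 3 panels, as do several other lists, among them the ubiquitin system and other neural transcription factors.

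Most genes with an E13.5-only promoter peak had no other E13.5 peak nearby, as did most genes with a promoter peak at both stages. Another E13.5 peak beyond 1000 bp but within 50 kb was listed for 47 of the 321 genes (14.6%, 11.2 to 18.9), against 15.6% (12.8 to 18.9) of the 532 genes with a promoter peak at both stages. Of the 321 genes, 272 (84.7%) had 1 E13.5 peak within 50 kb, 34 had 2 and 15 (4.67%) had 3 or more. The genes with most were Cwc22, a spliceosome-associated gene, with 36, 3110070M22Rik and Dlx2 with 7 each, Tle1 with 5, and Mrgpra3 and Sp9 with 4 each. At E16.5 Cwc22 had 8 peaks within 50 kb and Mrgpra3 had 9. Of all 57 E13.5 peaks of Cwc22, 8 recurred. Whether such dense runs of peaks mark separate Sp9 sites was not tested. Siah3, a ubiquitin ligase family gene, was the only gene with 2 E13.5-only promoter peaks, at 198 and 945 bp upstream. Its nearest E16.5 peak lay 61126 bp downstream and matched the E13.5 peak at 61150 bp.

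Other peaks of the same genes were followed to see whether they recurred, a measure that the choice of the promoter peaks did not use directly. The 321 genes had 322 other E13.5 peaks beyond 1000 bp, of which 157 recurred (48.8%, 43.3 to 54.2). Cwc22 alone had 57 E13.5 peaks, and without it 149 of 266 recurred (56.0%, 50 to 61.9). For genes with a promoter peak at both stages the share was 286 of 460 (62.2%, 57.7 to 66.5), and for all E13.5 peaks beyond 1000 bp of every TSS 56.8% (55.4 to 58.2). With Cwc22 the interval for genes with an E13.5-only promoter peak lay below those of both other groups. Cwc22 was left out after its values were seen, and from this set alone. Without it the share was close to that of all distant peaks, and its interval overlapped that of genes with a promoter peak at both stages. The 266 peaks belong to 99 genes, and the intervals treat peaks of a gene as independent. At Tle4, 8 of 13 E13.5 peaks recurred, and the lack of a counterpart for its promoter peak follows from the rule. At Klf7, 5 of 8 recurred, and an E16.5 promoter peak lay 316 bp from the place of its E13.5-only peak.

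A total of 12 of the 322 peaks (3.73%, 2.14 to 6.4) were assigned to a second gene, whose TSS lay beyond the 1000 bp limit. The share was 6.38% (4.60 to 8.78) for peaks at both stages and 4.87% (3.74 to 6.31) for E16.5-only peaks. The second genes, named after their values were seen, included Txndc12, 1050 bp from the peak of Btf3l4, and Ehmt2, a histone methyltransferase gene, 4665 bp from the peak of Zbtb12. The peak lay upstream of the second TSS in the 12 pairs. The assignment sets this side, since the basal domain of a gene reaches 5000 bp before its TSS but only 1000 bp after it.

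Reference promoters were found for 254 of the 314 protein-coding genes (80.9%) and for 420 of the 518 with a promoter peak at both stages (81.1%). Genes with an E16.5-only peak had a promoter in 79.9% of cases, under the 80% set for such a comparison, and are left out here. The median GC content of the 300 bp windows was 64.3% (62.7 to 66.3) for the 254 promoters with an E13.5-only peak, 65.3% (64.7 to 66.3) for those with a peak at both stages and 56.3% (56.0 to 56.7) for all 17492 protein-coding genes in the table. The ratio of observed to expected CpG had a median of 0.825 for E13.5-only promoters, 0.839 for promoters at both stages and 0.576 for all. The ratio was below 0.6, as in promoters outside CpG islands, in 41 (16.1%, 12.1 to 21.2) of the E13.5-only promoters, 10.5% (7.90 to 13.8) of those at both stages and 51.7% of all. E13.5-only promoters were thus rich in GC and CpG, as were promoters with a peak at both stages.

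A GC content below 50% was found in 20 of the 254 promoters (7.87%, 5.15 to 11.8), in 4.29% (2.73 to 6.67) of those at both stages and in 30.2% of all. The 5 lowest of these 20, named after their values were seen, were Npvf, a neuropeptide gene, with 34.3%, Laptm4a, a lysosomal membrane protein gene, with 38%, Med16 with 39.3%, Setd5 with 39.7% and Myt1l with 40%. Of these, Laptm4a, Setd5 and Myt1l had an E16.5 peak, while Npvf and Med16 had none. The peaks of Laptm4a, 508 bp downstream, and Setd5, 694 bp upstream, lay outside the window whose GC content was measured. Myt1l has several listed starts, of which the first was used.

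**Figure D5:**
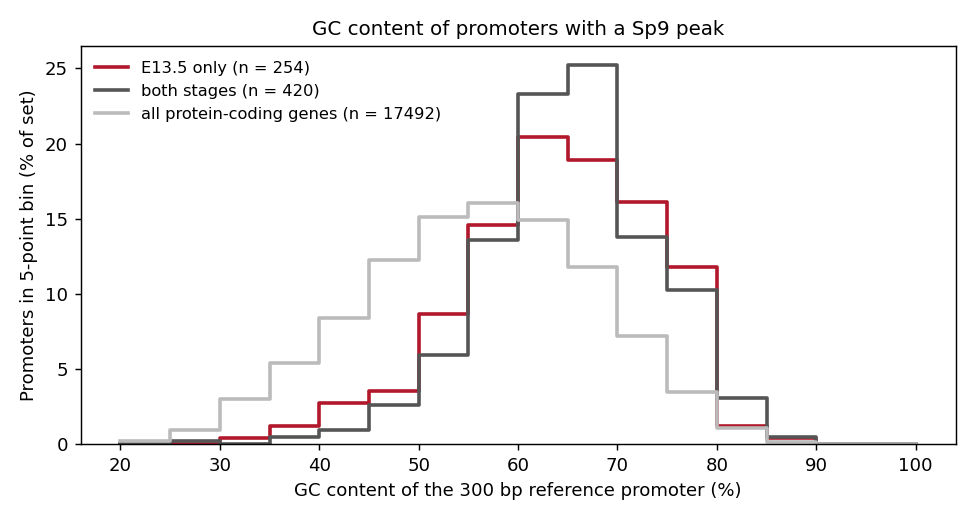
GC content of the 300 bp reference promoter (x axis, percent, in bins of 5 points) for genes with an E13.5-only promoter peak (red), a promoter peak at both stages (dark grey) and all protein-coding genes in the table (light grey); the y axis gives the percent of each set. The red and dark grey lines overlap and lie right of the light grey line, with medians of 64.3%, 65.3% and 56.3%.

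The short sequence motifs were searched on both strands. GGGCGG was present in 197 of the 254 E13.5-only promoters (77.6%, 72.0 to 82.3), in 83.3% (79.5 to 86.6) of promoters with a peak at both stages and in 46.3% of all. GGGTGG, the CACCC box bound by KLF factors, was present in 39.4% (33.6 to 45.5) of E13.5-only promoters, 40.2% of those at both stages and 32.8% of all. CCGGAA, the core of ETS factor sites, was present in 25.6% (20.6 to 31.3), 26.2% and 19.1% of these sets. The NRF1 motif was present in 11% (7.74 to 15.5) of E13.5-only promoters, 15.0% (11.9 to 18.7) at both stages and 6.60% of all. CCAAT was present in 42.9% (37.0 to 49.1), 36.4% (32.0 to 41.1) and 39.0%. TATAAA was less frequent, with 4.33% (2.44 to 7.59), 4.76% and 13.3%. The homeodomain core TAATTA was present in 1.97% (0.844 to 4.52), 1.67% and 4.68%, and TGANTCA, the AP-1 motif, in 3.15% (1.6 to 6.09), 2.38% and 7.08%. CAGCTG, an E-box, and TGACGTCA, the CRE motif, were in 15.7% and 2.36% of E13.5-only promoters, against 15.1% and 2.34% of all. For each of the 10 motifs the intervals of E13.5-only promoters and promoters at both stages overlapped. GC-rich motifs and GC content go together in these windows, and their separate parts were not tested. The overlap of GGGCGG with the other motifs was not counted.

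Within the E13.5-only set, GGGCGG was present in 115 of 144 promoters (79.9%, 72.6 to 85.6) whose peak lay inside the window shown and in 82 of 111 (73.9%, 65.0 to 81.1) whose peak lay elsewhere within 1000 bp. Siah3, with a peak in each place, counts in both. It was present in 126 of 160 promoters of genes without any E16.5 peak (78.8%, 71.8 to 84.4) and in 71 of 94 of genes with one (75.5%, 66.0 to 83.1). The median GC content was 62.7% (61.3 to 65.3) without and 66.8% (63.7 to 69.7) with an E16.5 peak. These intervals overlap in each pair.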

How the data were processed

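Sp9 ChIP-seq peak lists of basal ganglia at E13.5 and E16.5 were analysed. Per the file headers, the authors assigned peaks on mm9 to genes by regulatory domains that covered 5000 bp before and 1000 bp after the TSS and reached at most 1000000 bp, plus curated domains. The deposited files are text: numbered peaks per gene with signed TSS distances in bp, without heights, coordinates or depth. MACS2 2.1.0, BWA 0.6.2, bcl2fastq 1.8.4 and CASAVA 1.8.2 appear in the submitters' processing notes without settings. Lettered entries of a number were counted as 1 peak. Gene names were matched to RefSeq (GRCm38.p6, used for names and promoters only); 17 of 316 matched through a synonym, and 1 unmatched name has the form of a calendar date. Where RefSeq lists several starts, the first was used.

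Shares carry 95% Wilson intervals and medians order-statistic intervals. A count of 0 was taken to allow 3 genes. No p-values were computed, since the members were chosen by their values and each stage has 1 library. The members and gene lists were chosen with earlier results of these data known. Genes were named by a fixed rule: Sp8, Sp9 and Six3, members in lists of gene names, up to 4 genes of a pattern list nearest the TSS, genes with 2 member peaks, the nearest and farthest peaks, those at the 200 bp limit and those with most peaks within 50 kb. Values of some genes that the rule names are not reported here. The matching was run on simulated data in which kept peaks were shifted by less than the 200 bp limit. That run checked the counting and could not test peaks that differ by about the limit. Scripts ran under Python 3.11.15 with numpy 2.4.6, scipy 1.17.1 and, for plots, matplotlib 3.10.9.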

Additional observations from a re-analysis of the deposited data

How the results depend on the processing

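Of 75 values under other settings, 62 stayed within the interval of the reported value (for the number of peaks, within 1.5 times) and 13 did not. The number of E13.5-only promoter peaks ranged from 272 to 453. Counting sites within 100 bp, 500 bp and 1000 bp as the same gave shares of E13.5-only peaks of 53.0%, 33.0% and 31.8% of single-gene promoter peaks, against 37.7% at 200 bp. With these limits an assigned gene had another E16.5 promoter peak in 40.0%, 3.90% and 1.47% of cases, against 15.5%, and no E16.5 peak in 42.8%, 68.8% and 71.3%, against 60.2%. Promoters within 500 bp gave 11% with another E16.5 promoter peak, and promoters within 2500 bp gave 21.8% and a median absolute distance of 173 bp. These shifts follow from the limits themselves. GC content and the GGGCGG share stayed within their intervals under every setting tried, including the last listed RefSeq start (64.8% and 74.4%), which was chosen after seeing the data, as was leaving out Cwc22. No paired analysis was possible because each stage has 1 ChIP library. Without heights or depth, a peak just under the authors' threshold cannot be told from an absent one.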
